A study of Mus musculus with 10 samples.

Results

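The 2 hairpins that lowered Rbfox2 in mouse embryonic stem (ES) cells, shFox2-1 and shFox2-2, were compared with each other gene by gene. A gene entered the comparison when its deposited status was not a failure in any hairpin and the mean of its 2 values was at least 1 FPKM, that is, fragments per kilobase of a transcript after scaling for library size. This held for 12587 of 26857 entries of the expression table. A status of LOWDATA instead of OK was allowed, and 10787 of the entries compared were OK in both Rbfox2 hairpins. A gene was chosen when the deposited intervals of its 2 values did not overlap, both as deposited and after each column had been divided by its median, with the same direction both times. These 868 genes, 244 higher and 624 lower in shFox2-2, are called separated below.

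RBFOX2 binds the motif GCAUG in pre-mRNA and sets which alternative exons are included, depending on whether it binds upstream or downstream of the exon. ES cells can stand in a naive state, sustained by LIF and marked by Nanog, Klf4, Tbx3 and Esrrb, or move towards a primed state, marked by Pou3f1, Dnmt3b and targets of NODAL signalling. A short hairpin RNA is processed into a small RNA that lowers its matching transcript, and hairpins with different sequences against the same gene share that gene but not their other matches.

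The cells were V6.5 mouse ES cells grown with serum and LIF on gelatin, infected with lentivirus and selected in puromycin at 1 µg/ml for 3 days, then kept for 24 hours without it. All 4 groups carried a lentiviral hairpin: shLuc against luciferase and shGFP against GFP as controls, and shFox2-1 and shFox2-2 against Rbfox2. With biological duplicates of each there were 8 RNA-seq libraries (paired-end, from poly(A) RNA), 4 of them with Rbfox2 hairpins. The table pools the 2 libraries of a hairpin into 1 value, so hairpin, infection and culture cannot be told apart, and the intervals are the authors' own and not a spread between libraries. The series also holds 2 iCLIP libraries (crosslinked RNA recovered with FLAG-HA-tagged human RBFOX2 and with untagged RBFOX2 as control, each induced with doxycycline at 1 µg/ml for 24 hours and irradiated at 150 mJ/cm2), from which 1 cluster list was used. The sequences of the hairpins are not used here.

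ES cell markers were at high levels in every hairpin. Their summed level (4 of 5 markers matched) was 503 FPKM in shLuc, 568 in shGFP, 668 in shFox2-1 and 484 in shFox2-2. Pou5f1, the central pluripotency factor, stood at 285, 336, 299.7 and 268 FPKM in the same order. Fibroblast markers summed to between 4.001 and 4.73 FPKM and mesoderm markers to between 1.74 and 2.82 FPKM over the 4 hairpins. Sequencing depth is unknown. For entries above 5 FPKM the intervals reached a median of 14.9% to either side of the value in shFox2-1 and 17.6% in shFox2-2.

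The targeted gene was lowered by both hairpins. Rbfox2, which the table names Rbm9 (chromosome 15 of mm9, 76912769 to 77137358), had values of 24.7 (shLuc), 23.3 (shGFP), 8.56 FPKM in shFox2-1 (interval 7.14 to 9.98) and 7.21 FPKM in shFox2-2 (5.59 to 8.82). Both knockdown values lay below both control intervals, and the 2 knockdown intervals overlapped. The deposited status of Rbfox2 was LOWDATA in shLuc and shFox2-2. On the log2(FPKM + 1) scale, shFox2-2 minus shFox2-1 was -0.22 as deposited. With each column centred on its median gene it was -0.03. With overlapping intervals, a difference in what remained of Rbfox2 mRNA was not detectable at this precision.

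Many other genes differed between the hairpins. As deposited, the intervals of 1887 entries (15% of those compared) did not overlap, 244 higher (1.94%) and 1643 lower (13.1%) in shFox2-2. The median log2 FPKM of the shFox2-2 column was 0.22 below that of shFox2-1 (a shift of -0.22), and the authors' scaling between hairpins is not given in the sources used here. After each column was centred on its median, 1465 entries (11.6%) were apart, 841 higher (6.68%) and 624 lower (4.96%). The split between higher and lower thus depended on the scaling: 1019 genes were lower only as deposited, and 597 were higher only after centring. No gene was called in opposite directions. All directions below are relative to the median gene unless stated otherwise, and 868 entries (6.9%) were apart on both scales.

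The control hairpins gave a reference for how often the same rule separates genes between hairpins without Rbfox2 as target. Between shGFP and shLuc, 47 of 12649 entries (0.372%) were apart on both scales, 23 higher (0.182%) and 24 lower (0.19%) in shGFP. As deposited the count was 151 (1.19%), with 127 higher (1%) and 24 lower. After centring it was 89 (0.704%), with 23 higher and 66 lower (0.522%). The difference between these rates and those of the Rbfox2 hairpins was not tested.

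A p-value came only from a limma fit that assumes each Rbfox2 hairpin to vary like the 2 control hairpins vary between themselves. On the deposited values it called 2030 of 12587 entries (16.1%) at an adjusted p under 0.05, 343 higher and 1687 lower in shFox2-2, and 3707 (29.5%) at an unadjusted p under 0.05. With centred columns it called 1708, 1083 higher and 625 lower. Without the minimum of 1 FPKM it called 0 of 19622 entries, with 3531 at an unadjusted p under 0.05. The fit uses the same pooled values that chose the separated genes, so no p is given for single separated genes.

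**Figure D1:**
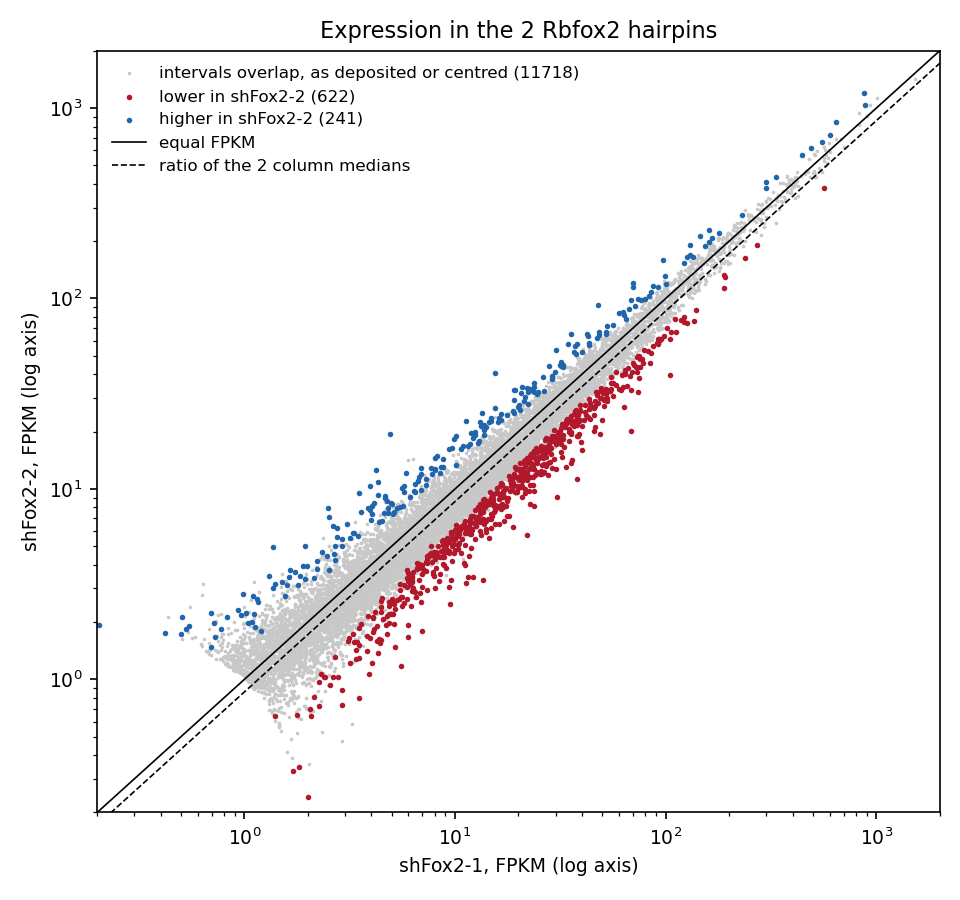
Deposited FPKM in shFox2-1 (x axis) and shFox2-2 (y axis), both on log axes, for the entries compared that were above 0 in both; red points were lower and blue points higher in shFox2-2 on both scales. The solid line marks equal FPKM and the dashed line the ratio of the column medians, and 244 separated genes lie above and 624 below, of which 5 with a value of 0 are not drawn.

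The median absolute centred difference of the separated genes was 0.62 on the log2 scale. The median centred ratio of shFox2-2 to shFox2-1 was 1.81 in the higher and 0.653 in the lower genes. A centred difference of at least 1 on the log2 scale was found in 80 separated genes, 41 higher and 39 lower, among 96 such entries in all. At the edge of the rule, Gm1040 at 10.7 against 7.81 FPKM lay just inside and Coil, a Cajal body protein, at 10.6 against 7.39 FPKM lay just outside. A level of at least 5 FPKM was reached by 702 separated genes. Of all 868, 74 were predicted or unnamed loci, beside 2195 of the 12587 entries compared, and 105 shared their locus with another entry, so that reads may be split between them.

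Among the genes higher in shFox2-2, those with the largest differences were mostly low in shFox2-1, with shFox2-2 nearer to the controls. Kif1a, a kinesin that carries synaptic vesicle precursors, stood at 17.5 FPKM in shLuc, 16.0 in shGFP, 4.90 in shFox2-1 (4.14 to 5.65) and 19.5 in shFox2-2 (17.2 to 21.9). Its centred difference was 1.99. Only the shFox2-1 value of Kif1a stood apart from the other 3. Enpp2, the secreted enzyme autotaxin, stood at 17.05, 14.1, 4.23 and 12.5 FPKM in the same order, a difference of 1.56. Prom1, the membrane glycoprotein CD133, stood at 7.47, 6.42, 2.49 and 7.95 FPKM, a difference of 1.53. Enpp2 and Prom1 both had their lowest value in shFox2-1. The deposited status was LOWDATA for Kif1a in every hairpin, for Enpp2 in all but shLuc and for Prom1 in shFox2-2.

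Cldn6, a tight junction claudin of early embryonic epithelium, stood at 75.4 FPKM in shLuc, 76.05 in shGFP, 47.6 in shFox2-1 and 92.3 in shFox2-2, so its controls lay between the Rbfox2 hairpins by value. Slc16a3, the lactate exporter MCT4, stood at 69.5, 66.6, 35.3 and 65.3 FPKM, with shFox2-1 apart from the rest. The other genes of this group were Pim2 (described below), Mapk12, a p38 kinase, Mef2b, a MADS-box transcription factor, Car4, a carbonic anhydrase, Tspan7, a tetraspanin, Tmem54, Card19 (listed as 1110007C09Rik) and Nrep (listed as D0H4S114). Their centred differences ran from 1.098 for Nrep to 1.55 for Pim2. The deposited status was LOWDATA for Slc16a3 in shFox2-2, for Nrep in every hairpin and for Mef2b in both controls.

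Ccnd1, the G1 cyclin D1, is listed at 0 in shLuc, shGFP and shFox2-1 and at 23.9 FPKM in shFox2-2 (20.7 to 27.0). The predicted locus LOC668700 is listed at 13.4, 12.3, 0 and 10.2 FPKM. EG433230 (current symbol Nsa2-ps1, a pseudogene) is listed at 0 in shLuc, 15.2 in shGFP, 15.9 in shFox2-1 and 0 in shFox2-2. The deposited status was LOWDATA for LOC668700 in all but shLuc and for EG433230 in all but shGFP. Values of 0 beside such levels can be failed estimates, and EG433230 differed in the same way between the controls, so no fold is given for these genes.

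Among the genes lower in shFox2-2, the largest differences were raised values in shFox2-1. S100a6, the calcium-binding protein calcyclin, stood at 17.9 FPKM in shLuc, 22.9 in shGFP, 68.7 in shFox2-1 (59.8 to 77.6) and 20.2 in shFox2-2 (15.6 to 24.8). Its centred difference was -1.50. The other 3 intervals lay below that of shFox2-1. Calcoco2 (listed as Ndp52), an autophagy receptor, stood at 5.66, 7.68, 21.9 and 5.70 FPKM, a difference of -1.58. Pdgfa, the A chain of platelet-derived growth factor, stood at 6.33, 7.17, 23.7 and 8.14 FPKM, a difference of -1.23. Mt2, a metal-binding metallothionein, stood at 38.1, 47.7, 104 and 39.9 FPKM, a difference of -1.15. In these 3 genes as well, shFox2-2 was near the controls.

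This group also held Krt42, a type I keratin locus, Septin1 (listed as Sept1), Fam25c (listed as 2200001I15Rik), AU015836 and 3 predicted loci. Krt42 stood at 3.70, 3.52, 9.34 and 3.06 FPKM in shLuc, shGFP, shFox2-1 and shFox2-2. In Septin1 the controls lay between the Rbfox2 hairpins by value, at 8.97, 11.5, 18.9 and 6.31 FPKM.

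**Figure D2:**
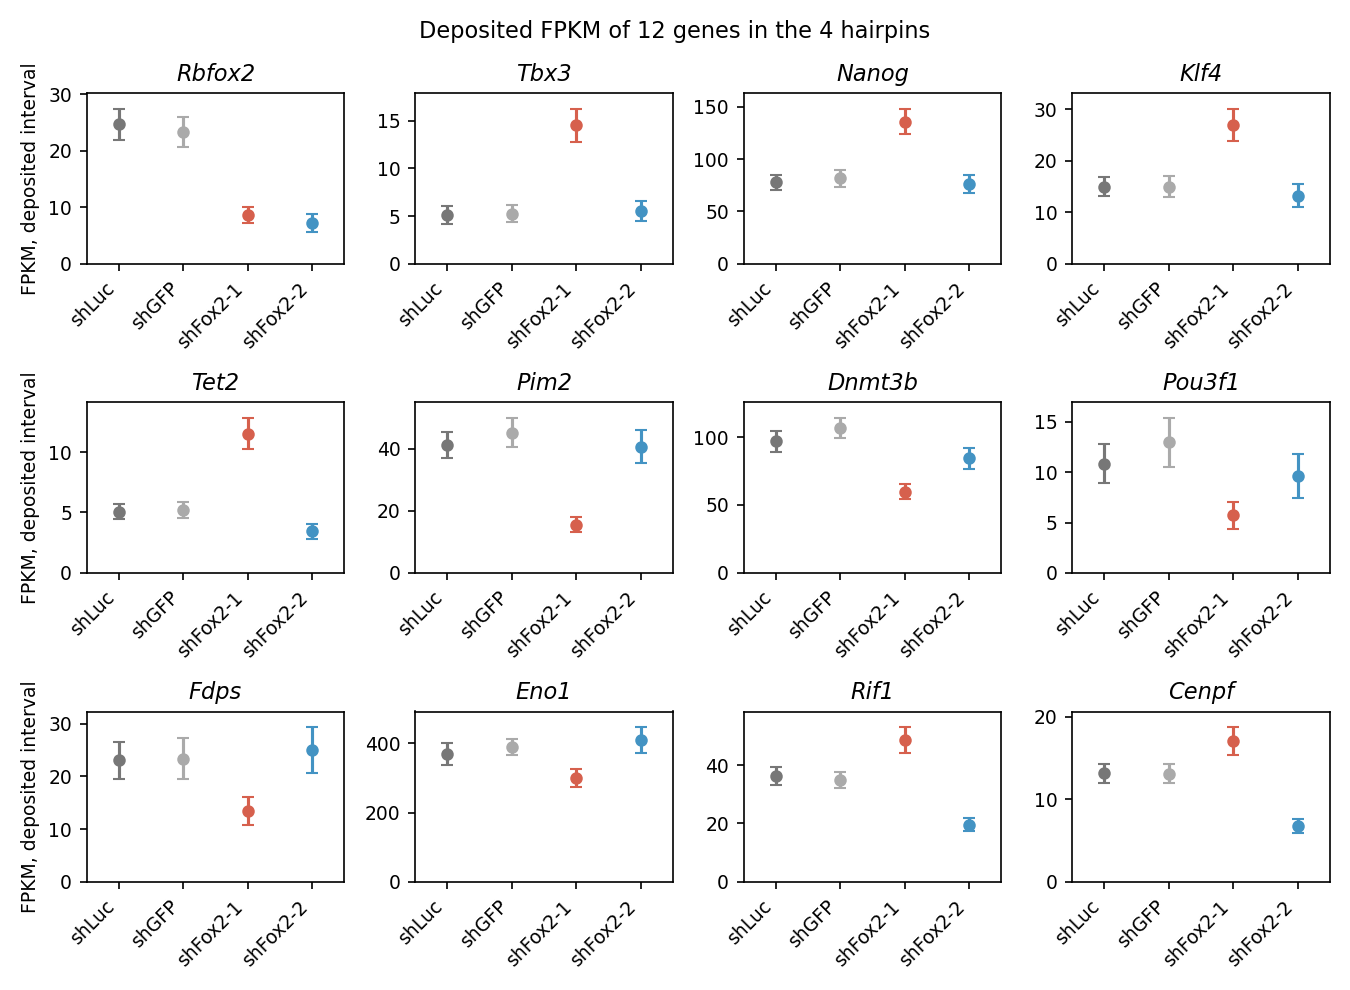
Deposited FPKM (y axis, linear, from 0) of 12 genes in the 4 hairpins (x axis); points are the pooled values and bars the deposited lower and upper bounds. The Rbfox2 intervals overlap between the Rbfox2 hairpins, at 8.56 and 7.21 FPKM, while Tbx3, Nanog, Klf4 and Tet2 are highest and Pim2, Dnmt3b, Pou3f1 and Fdps lowest in shFox2-1, and Rif1 and Cenpf are lowest in shFox2-2.

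The position of the separated genes against the controls was counted next. The choice of genes fixes part of these directions and both comparisons share the control hairpins, so the counts are descriptive. Of the 624 genes lower in shFox2-2, the shFox2-1 interval lay above both control intervals in 356 as deposited and 257 after centring, and the shFox2-2 interval lay below both in 168 and 76. Of the 244 genes higher in shFox2-2, shFox2-1 lay below both controls in 128 as deposited and 164 after centring, and shFox2-2 above both in 7 and 33. Over all entries compared, shFox2-1 lay outside both controls in 7.53% as deposited (5.5% above, 2.03% below) and 6.35% after centring (3.14% and 3.21%). For shFox2-2 the shares were 2.34% as deposited (0.35% above, 1.99% below) and 3.01% after centring (2.28% and 0.731%). Neither hairpin lay outside both controls in 158 lower genes as deposited and 301 after centring, and in 110 and 59 higher genes.

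Gene lists were described by the median centred difference of their measured members, beside 0.03 for all entries (-0.15 as deposited), and by their counts, beside 6.68% higher and 4.96% lower for all entries after centring. Of 44 lists, 15 had a median of at least 0.2 in size, 9 above and 6 below. The 6 below include the 2-cell-like state at -0.63, with only 1 member measured. As deposited there were 21, 2 above and 19 below, and 15 of the 44 medians changed sign between the scales.

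Genes of the naive and core pluripotency network were lower in shFox2-2 than in shFox2-1. Of 33 measured members, 12 were lower and 0 higher after centring, 24 lower and 0 higher as deposited, and 12 were lower on both scales. The list's median was -0.35 (-0.56 as deposited). Tbx3, a T-box factor that sustains self-renewal, stood at 5.10 FPKM in shLuc, 5.24 in shGFP, 14.5 in shFox2-1 (12.8 to 16.2) and 5.51 in shFox2-2 (4.43 to 6.58). Its centred difference was -1.05, and only shFox2-1 stood apart. Klf4, a Krüppel-like factor downstream of LIF, stood at 15.0, 14.95, 26.9 and 13.2 FPKM, a difference of -0.76. Tfcp2l1 (listed as Tcfcp2l1), a further LIF-responsive factor, stood at 12.8, 12.6, 25.2 and 11.96 FPKM, a difference of -0.81. Pecam1, an adhesion molecule of the inner cell mass, stood at 10.7, 11.99, 24.1 and 11.8 FPKM, again with shFox2-1 alone above the rest.

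The marker Nanog shares its entry with LOC100038891 and stood at 77.9, 81.5, 136 and 76.03 FPKM (-0.61). Zfp42, the marker REX1, stood at 109.6, 116, 189 and 114 FPKM (-0.51), and Esrrb, an orphan nuclear receptor, at 30.8, 34.2, 43.4 and 26.3 FPKM (-0.49). All 3 were highest in shFox2-1. Pou5f1 was not among them, with a centred difference of 0.06 and overlapping intervals. Other members apart on both scales were Lifr, the LIF receptor, Fbxo15, Nr0b1 and Klf2, with differences from -0.71 to -0.42. Against shLuc and shGFP the median of the list was 0.26 and 0.28 in shFox2-1, and -0.02 and -0.00 in shFox2-2.

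Genes of the primed state and of NODAL signalling lay the other way. Of 20 measured members, 8 were higher and 1 lower after centring, 6 higher and 4 lower as deposited, and 6 were higher and 1 lower on both scales. The list's median was 0.36 (0.16 as deposited). Pim2, a serine/threonine kinase, stood at 41.2 FPKM in shLuc, 45.2 in shGFP, 15.5 in shFox2-1 (13.1 to 17.9) and 40.7 in shFox2-2 (35.3 to 46.0). Its centred difference was 1.55, with shFox2-1 alone below the rest. Trh, which encodes thyrotropin-releasing hormone, stood at 83.4, 73.2, 30.1 and 53.5 FPKM, a difference of 1.02. In Trh shFox2-2 too was below both control intervals as deposited, but not after centring. Pou3f1, the POU factor OCT6, stood at 10.8, 13.0, 5.70 and 9.58 FPKM, a difference of 0.85. The member that was lower in shFox2-2 was Etv4, an ETS factor downstream of FGF signalling, at 12.1, 14.4, 24.7 and 14.3 FPKM. Against shLuc and shGFP the list's median was -0.37 and -0.45 in shFox2-1 and -0.08 and -0.07 in shFox2-2.

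Enzymes that add methyl groups to DNA or oxidise methylcytosine differed in both directions. Of 14 measured members, 4 were higher and 3 lower after centring, 2 higher and 3 lower as deposited, and the same numbers on both scales. The de novo methyltransferase Dnmt3b stood at 96.8 FPKM in shLuc, 107 in shGFP, 59.7 in shFox2-1 and 84.3 in shFox2-2, a difference of 0.71. The related Dnmt3a stood at 28.4, 32.9, 22.8 and 33.4 FPKM, a difference of 0.74. Both were lowest in shFox2-1, and both are also members of the primed list. Tet2 (listed as E130014J05Rik) stood at 5.05, 5.21, 11.5 and 3.45 FPKM, a difference of -1.31. Tet1 (listed as Cxxc6) stood at 15.3, 15.8, 23.4 and 10.4 FPKM, a difference of -0.89. For both dioxygenases the controls lay between the Rbfox2 hairpins by value. Neither family went one way: Dnmt1, the maintenance methyltransferase, was lower, at 29.0, 32.2, 33.6 and 22.8 FPKM, and Tet3 (listed as D230004J03Rik) was higher after centring only, at 1.59, 1.78, 1.103 and 1.56 FPKM.

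Trophoblast and simple epithelial genes were lower in shFox2-2. Of 13 measured members, 6 were lower and 0 higher on both scales, and the median was -0.49 (-0.68 as deposited). Bmp4, a ligand of the TGF-beta family, stood at 3.39 FPKM in shLuc, 4.79 in shGFP, 11.1 in shFox2-1 and 4.1 in shFox2-2, a difference of -1.05. Krt7, a simple epithelial keratin, stood at 1.59, 1.73, 4.04 and 1.22 FPKM, a difference of -1.03. Both were highest in shFox2-1. Tead4 and Tfap2c (listed as Tcfap2c), transcription factors of the trophectoderm, had differences of -0.64 and -0.60. The 5 fixed trophoblast markers summed to 33.6, 36.7, 64.0 and 37.7 FPKM, nearly all of it from Krt8 (19.5, 20.8, 39.03 and 23.1 FPKM) and Krt18 (13.4, 15.1, 23.1 and 13.5 FPKM). The defining factors Cdx2 and Gata3 were at 1.07 FPKM or below in every hairpin, and Elf5 is listed at 0 in shFox2-2 and was at most 0.154 FPKM elsewhere. In bulk RNA, fewer cells of a type and less RNA per cell cannot be told apart.

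Neural and ectodermal genes were higher in shFox2-2, with 4 higher and 1 lower of 12 measured members after centring (3 and 1 on both scales) and a median of 0.51 (0.35 as deposited, 0.75 at a minimum of 5 FPKM, 0.25 without a minimum). Nes, an intermediate filament of neural progenitors, stood at 8.49, 9.69, 3.87 and 7.92 FPKM in shLuc, shGFP, shFox2-1 and shFox2-2, a difference of 1.06. Msi1, an RNA-binding protein of neural stem cells, stood at 11.8, 11.9, 5.74 and 10.3 FPKM, a difference of 0.94. Zic2, a zinc finger factor of the epiblast and neural plate, stood at 14.9, 13.5, 6.35 and 9.80 FPKM, a difference of 0.75. These 3 were lowest in shFox2-1. The neuronal tubulin Tubb3 went the other way, at 27.3, 32.1, 38.3 and 24.7 FPKM. The 5 fixed neural markers summed to 44.5, 49.7, 48.2 and 40.2 FPKM, with Tubb3 as the largest part.

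Of 9 measured members of the endoderm list, 5 were lower and 1 higher on both scales, with a median of -0.34 (-0.54 as deposited, -0.10 without an FPKM minimum). The 5 lower members encode extracellular matrix, which ES cells also express. The collagen IV chain Col4a2 stood at 4.74, 4.91, 7.36 and 4.103 FPKM, and Sparc, a matrix glycoprotein, at 50.02, 57.2, 72.05 and 43.8 FPKM. Col4a1 and Lama1 had differences of -0.41 and -0.35. Matrix genes in other lists went otherwise: fibronectin, Fn1, and the matrix metalloproteinase Mmp2, both of the fibroblast list, were higher on both scales, at 0.57 and 0.82. In the list of integrins, laminins and adhesion 1 of 21 was higher and 0 lower after centring (1 and 3 as deposited), with a median of -0.02. The higher member of the endoderm list was Apoe, an apolipoprotein, at 195, 205, 160 and 229 FPKM. The fixed endoderm markers Gata4, Gata6, Sox17, Sox7 and Dab2 summed to between 6.90 and 7.15 FPKM over the 4 hairpins.

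Imprinted genes did not go one way. Of 23 measured members, 8 were higher and 4 lower after centring, 4 higher and 6 lower as deposited, and 4 and 4 on both scales. The noncoding RNA H19 lies on chromosome 7 of mm9 from 149761437 to 149764051 and had values of 10.8 FPKM in shLuc, 14.3 in shGFP, 38.1 in shFox2-1 (33.9 to 42.3) and 11.2 in shFox2-2 (9.22 to 13.3). Its difference was -1.47. Its neighbour Igf2, a growth factor expressed from the opposite parental allele, stood at 5.91, 6.90, 16.2 and 6.51 FPKM, a difference of -0.99. Peg10, a placental gene derived from a retrotransposon, stood at 32.4, 37.5, 73.6 and 32.2 FPKM, a difference of -0.96. All 3 were highest in shFox2-1 alone. Sgce, which lies beside Peg10 and encodes a sarcoglycan, had a difference of 0.84, with 3.42, 4.15, 2.82 and 5.07 FPKM, and its intervals were apart only after centring.

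**Figure D3:**
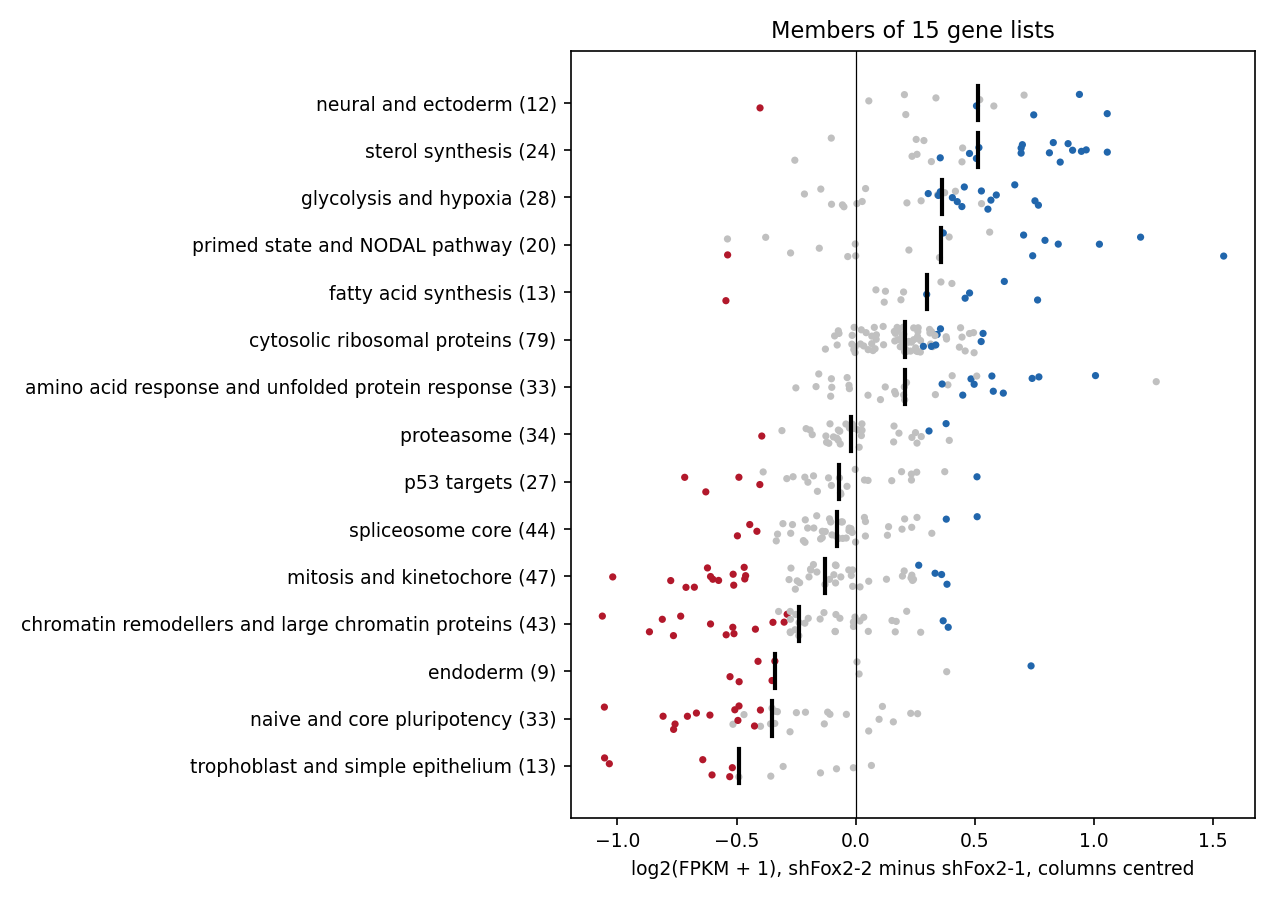
Centred difference in log2(FPKM + 1), shFox2-2 minus shFox2-1 (x axis), of the measured members of 15 gene lists (y axis, number of members in brackets); points are genes, coloured where their intervals were apart after centring, and black bars are list medians. The medians of the lists shown run from -0.49 for trophoblast and simple epithelium to 0.51 for sterol synthesis and for neural and ectoderm. The lists shown are not the same set as the 15 with a median of at least 0.2 in size.

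Enzymes of sterol synthesis were higher in shFox2-2. Of 24 measured members, 15 were higher and 0 lower after centring, 11 higher and 1 lower as deposited, and 11 higher on both scales. The median was 0.51 (0.31 as deposited). Fdps, which makes farnesyl diphosphate, stood at 23.0 FPKM in shLuc, 23.3 in shGFP, 13.4 in shFox2-1 (10.8 to 16.0) and 25.0 in shFox2-2 (20.6 to 29.4). Its difference was 1.06, with shFox2-1 alone below the rest. Sqle, the squalene epoxidase, stood at 48.9, 53.8, 34.3 and 57.8 FPKM, a difference of 0.95. Dhcr7 and Fdft1, which catalyse the last step to cholesterol and the first to squalene, had differences of 0.97 and 0.91. The sensor Insig1 (0.89) and the transcription factor Srebf2 (0.36) were among the 15. Against shLuc and shGFP the list's median was -0.47 and -0.48 in shFox2-1 and 0.11 and 0.10 in shFox2-2.

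The promoters of the sterol list were read from RefSeq (GRCm38.p6, 250 bases before to 50 after each gene's start, both strands). The CCAAT box, letters CCAAT, was found in 16 of the 17 measured sterol genes with an entry (94.1%), beside 43.5% of the 8397 genes compared that had an entry and 41.1% of all 27025 genes with a RefSeq promoter. Of the 15 sterol genes apart after centring, 9 had a promoter entry, and the CCAAT box was found in 8 of these (88.9%). With 16 of 17 list genes holding the letters, this count could hardly tell members that were apart from the others. The sterol regulatory element spelled TCACNCCAC was found in 0 of 17, beside 1.45% of genes compared. Idi1, isopentenyl diphosphate isomerase, stood at 66.9, 67.6, 42.4 and 65.5 FPKM, and Msmo1 (listed as Sc4mol), a sterol methyl oxidase, at 28.01, 28.9, 19.003 and 29.4 FPKM. The 150 bases before their starts are shown since each holds 2 CCAAT letters (capitals, ATTGG being the same letters on the other strand), at chr13:8885456-8885605 on the plus strand for Idi1 and chr8:64733579-64733728 on the minus strand for Msmo1:
Idi1: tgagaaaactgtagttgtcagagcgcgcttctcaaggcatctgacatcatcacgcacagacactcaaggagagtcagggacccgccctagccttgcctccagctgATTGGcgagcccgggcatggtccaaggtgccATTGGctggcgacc
Msmo1: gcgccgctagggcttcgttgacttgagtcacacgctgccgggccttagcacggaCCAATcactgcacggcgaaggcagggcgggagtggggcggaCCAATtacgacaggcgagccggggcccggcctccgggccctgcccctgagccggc

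Glycolytic genes were higher as well, within a list of glycolytic and hypoxia-responsive genes. Of 28 measured members, 14 were higher and 0 lower after centring, 5 higher and 1 lower as deposited, and 5 higher on both scales. The median was 0.36 (0.17 as deposited). The hypoxia-responsive members Ankrd37, Bnip3, Ddit4, Egln1, Egln3, Ero1a, P4ha1 and P4ha2 were measured and were not among the 14. Vegfa, an angiogenic growth factor, stood at 10.7, 12.3, 7.27 and 11.3 FPKM, a difference of 0.77, and Aldoc, an aldolase, had a difference of 0.75. Eno1, an enolase, stood at 369, 388, 299.7 and 409.7 FPKM, a difference of 0.67. Aldoa, a further aldolase, stood at 393, 435, 334 and 433 FPKM, a difference of 0.59. In each of these the lowest value was that of shFox2-1. Processed pseudogenes of Eno1, Aldoa, Gapdh and Pgk1 can share reads with them. Against shLuc and shGFP the median was -0.27 and -0.25 in shFox2-1 and 0.02 and 0.02 in shFox2-2.

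The core of the hypoxia response element, letters ACGTG, was found in 19 of 25 measured members of this list with a promoter entry (76%), beside 30.7% of genes compared and 21.8% of all genes with a RefSeq promoter. Among members apart after centring the letters were found in 10 of 14 (71.4%), so they did not mark the members that were apart. These letters also lie within the E-box CACGTG. Pgk1, phosphoglycerate kinase, stood at 51.9, 50.2, 34.1 and 43.5 FPKM, and Ldha, a lactate dehydrogenase, at 190, 227, 161 and 176 FPKM, both apart only after centring. Their 150 bases before the start are shown with ACGTG or its other strand CACGT in capitals, at chrX:106186950-106187099 for Pgk1 and chr7:46845654-46845803 for the first of 2 Ldha promoters, both on the plus strand. The 150 bases before the second Ldha start hold 0 such letters. A match describes letters only and shows no bound factor:
Pgk1: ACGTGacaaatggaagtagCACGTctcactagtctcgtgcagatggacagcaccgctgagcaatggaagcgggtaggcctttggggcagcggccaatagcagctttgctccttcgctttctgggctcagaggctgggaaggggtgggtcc
Ldha: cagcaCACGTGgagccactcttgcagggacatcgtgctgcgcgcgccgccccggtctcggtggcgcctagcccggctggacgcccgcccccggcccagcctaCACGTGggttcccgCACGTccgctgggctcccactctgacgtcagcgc

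Other metabolic lists lay closer to all genes or turned with the scaling. Of 33 genes of the amino acid response and the unfolded protein response, 10 were higher and 0 lower after centring, but 3 were higher and 4 lower as deposited. The median was 0.21, and -0.00 as deposited. Phgdh and Shmt2, enzymes of serine and glycine metabolism, stood at 12.1, 13.4, 7.73 and 11.98 FPKM and at 80.3, 76.01, 63.2 and 81.5 FPKM. The median of cytosolic ribosomal protein genes was 0.21, and -0.00 as deposited, with 7 higher and 0 lower of 79 after centring and 1 and 0 as deposited. Their processed pseudogenes can share reads. Of 13 fatty acid synthesis genes, 5 were higher and 1 lower after centring, and 2 and 1 as deposited (median 0.30, 0.08 as deposited), with Fads1, a fatty acid desaturase, at 24.6, 22.6, 16.6 and 24.9 FPKM. Nuclear-encoded respiratory chain genes (76 measured, 5 higher and 0 lower after centring, 0 and 1 as deposited, median 0.06, -0.16 as deposited) and mitochondrial ribosomal proteins (77, 1 and 0 after centring, 0 and 1 as deposited, 0.06, -0.14 as deposited) were near the median of all entries.

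Large chromatin proteins were lower in shFox2-2, with 13 lower and 2 higher of 43 measured after centring, 27 lower and 0 higher as deposited, and 13 lower on both scales. The median was -0.24 (-0.43 as deposited). Rif1, which sets replication timing and protects broken ends, stood at 36.3 FPKM in shLuc, 35.0 in shGFP, 48.6 in shFox2-1 (44.2 to 53.04) and 19.5 in shFox2-2 (17.3 to 21.7). Its difference was -1.06, and the Rbfox2 hairpins lay on either side of both controls. Atrx, a chromatin remodeller of heterochromatin, stood at 37.6, 34.6, 49.6 and 23.0 FPKM, a difference of -0.87. Setd2, the histone H3 lysine 36 methyltransferase, stood at 11.4, 12.6, 17.4 and 8.10 FPKM, a difference of -0.81. Ncoa3, a nuclear receptor coactivator, stood at 15.95, 17.3, 28.1 and 13.8 FPKM, a difference of -0.76. Against shLuc and shGFP the list's median was 0.13 and 0.10 in shFox2-1 and -0.11 and -0.13 in shFox2-2. Of 22 Polycomb genes 5 were lower and 2 higher after centring, and 7 and 1 as deposited, with the core subunit Eed at 35.6, 40.4, 52.6 and 28.9 FPKM.

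Mitosis and kinetochore genes split within the list. Of 47 measured members, 13 were lower and 4 higher after centring, 0 higher and 21 lower as deposited, and 13 lower and 0 higher on both scales, with a median of -0.13 (-0.32 as deposited). Cenpf, a large kinetochore protein, stood at 13.2, 13.1, 17.1 and 6.77 FPKM, a difference of -1.02. Smc2, a condensin subunit, stood at 20.8, 20.8, 25.6 and 12.4 FPKM, a difference of -0.78. Mki67, the proliferation antigen, stood at 19.3, 18.7, 20.0 and 10.1 FPKM, a difference of -0.71. In these genes shFox2-2 was the lowest value. The 4 higher after centring were Tpx2, Cenpa, Cdc20 and Ccnb1, with differences from 0.27 to 0.38, and none was apart as deposited. DNA replication genes had a median of -0.04, with 4 higher and 1 lower of 46 after centring, and -0.25 as deposited, with 0 higher and 11 lower.

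**Figure D4:**
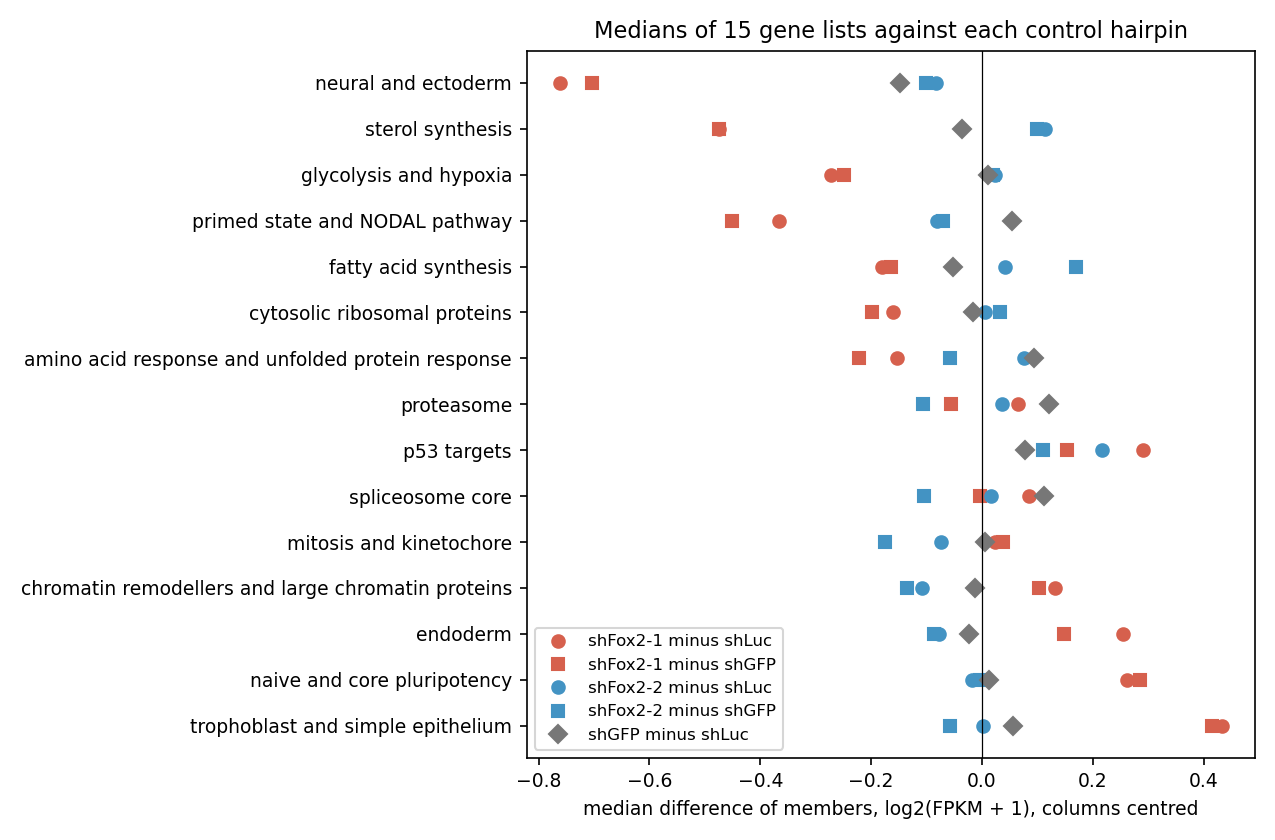
Median difference in log2(FPKM + 1), columns centred (x axis), of 15 gene lists (y axis) between each Rbfox2 hairpin and each control hairpin, and between the controls (grey diamonds); the comparisons share control values. Sterol synthesis lies at -0.47 and -0.48 in shFox2-1 and at 0.11 and 0.10 in shFox2-2, and pluripotency at 0.26 and 0.28 against -0.02 and -0.00.

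RNA-binding proteins, the class named in the study's title, had list medians near that of all genes, from -0.10 for other splicing regulators to 0.05 for hnRNP proteins after centring (-0.31 and -0.16 as deposited). Of 11 SR proteins and their relatives, which promote exon inclusion, 1 was higher and 2 lower after centring, and 0 and 3 as deposited. Tra2a stood at 32.3, 36.2, 45.8 and 26.5 FPKM, a difference of -0.55, and Srsf10 (listed as Fusip1) at 42.3, 42.1, 55.3 and 35.97 FPKM, a difference of -0.39. Both were highest in shFox2-1. Of 27 hnRNP proteins 6 were higher and 1 lower after centring, 1 higher and 6 lower as deposited, and 1 and 1 on both scales. Hnrnph1 (listed as Hnrph1), a repressor and activator of exons, stood at 176, 179, 239 and 163 FPKM. Pcbp4, a poly(C)-binding protein, stood at 88.7, 97.1, 76.4 and 98.5 FPKM.

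Of 43 other splicing regulators 3 were higher and 3 lower after centring, 0 higher and 14 lower as deposited, and 0 and 3 on both scales. Pnn, a nuclear speckle protein, stood at 21.8, 21.9, 26.3 and 14.6 FPKM. Mbnl1, a muscleblind splicing factor whose entry shares a predicted locus, stood at 3.37, 3.13, 4.46 and 2.40 FPKM. Of 44 core spliceosome genes 2 were higher and 3 lower after centring, and 1 and 15 as deposited, led by Snrnp70 (listed as Snrp70), the U1 protein, at 0.51 and Sf3b1, a U2 subunit, at -0.50. Of 18 genes of nonsense-mediated decay and the exon junction complex 3 were lower and 0 higher after centring, and 7 and 0 as deposited, among them Upf2 and Smg5, with differences of -0.56 and -0.37. Of 25 known RBFOX2 splicing targets 2 were higher and 1 lower after centring, with a median of 0.08, and 1 higher and 7 lower as deposited, with a median of -0.14. FPKM at gene level says nothing of exon inclusion in them.

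A few lists outside these programmes held large differences. Of 20 neuronal and synaptic genes 3 were higher and 1 lower after centring and on both scales, and 3 and 3 as deposited, with a median of 0.07 (-0.08 as deposited). Beside Kif1a these were the membrane adaptors Ank2 and Ank3, with differences of 1.07 and 0.92, and the microtubule protein Mapt, with -0.69. Of 33 genes of the actin cytoskeleton 5 were lower and 2 higher after centring, and 10 and 1 as deposited, with a median of 0.03 (-0.17 as deposited). Beside S100a6 the lower genes included Anxa2, a membrane-binding annexin, at 7.19, 8.15, 14.9 and 6.22 FPKM, and the cytoskeletal kinases Rock1 and Rock2, with differences of -0.73 and -0.71. Of 38 translation factors 5 were higher and 4 lower after centring, and 0 higher and 9 lower as deposited, with the initiation factor Eif5b at -0.65 the lowest.

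Genes that could respond to a hairpin as such were examined in the same way. Of 16 genes of microRNA and hairpin processing 2 were lower and 0 higher after centring, and 5 and 0 as deposited, with Dicer1, the nuclease that cuts hairpins, at 10.7, 11.5, 14.7 and 9.67 FPKM. Of 18 genes of the interferon and double-stranded RNA response 2 were higher and 0 lower after centring, 0 higher and 2 lower as deposited, and 0 on both scales. Bst2, an interferon-induced tether of virions, stood at 30.4, 34.2, 16.0 and 23.6 FPKM, below both controls in each Rbfox2 hairpin by value. Of 27 p53 target genes 4 were lower and 1 higher after centring, and 7 and 0 as deposited, with a median of -0.07 (-0.26 as deposited). Perp, a p53 effector at desmosomes, had a difference of -0.72, and Ccng1, a cyclin of the p53 pathway, stood at 33.7, 34.0, 54.1 and 32.8 FPKM.

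Locus span, which the rule did not use, and expression level, which it used only as a minimum, went with the calls. The median span from start to end was 19.7 kb over all entries compared, 23.7 kb in the higher and 36.1 kb in the lower separated genes. The share lower after centring was 2.35%, 3.88%, 6.10% and 7.50% from the shortest to the longest quartile group of spans, and the share higher was 5.50%, 7.09%, 6.55% and 7.59%. By quartile group of mean FPKM, from lowest to highest, the share higher was 3.30%, 3.495%, 5.18% and 14.7%. The share lower was 1.62%, 4.42%, 7.44% and 6.36%. The intervals narrowed in the same order, from a median of 32.4% of the value in shFox2-1 and 40.3% in shFox2-2 at the lowest FPKM to 11.6% and 13.5% at the highest. By span they ran from 21.8% and 26.98% in the shortest to 17.3% and 21.07% in the longest loci. The part of interval width and locus span in the calls and in the lists of large proteins was not tested.

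**Figure D5:**
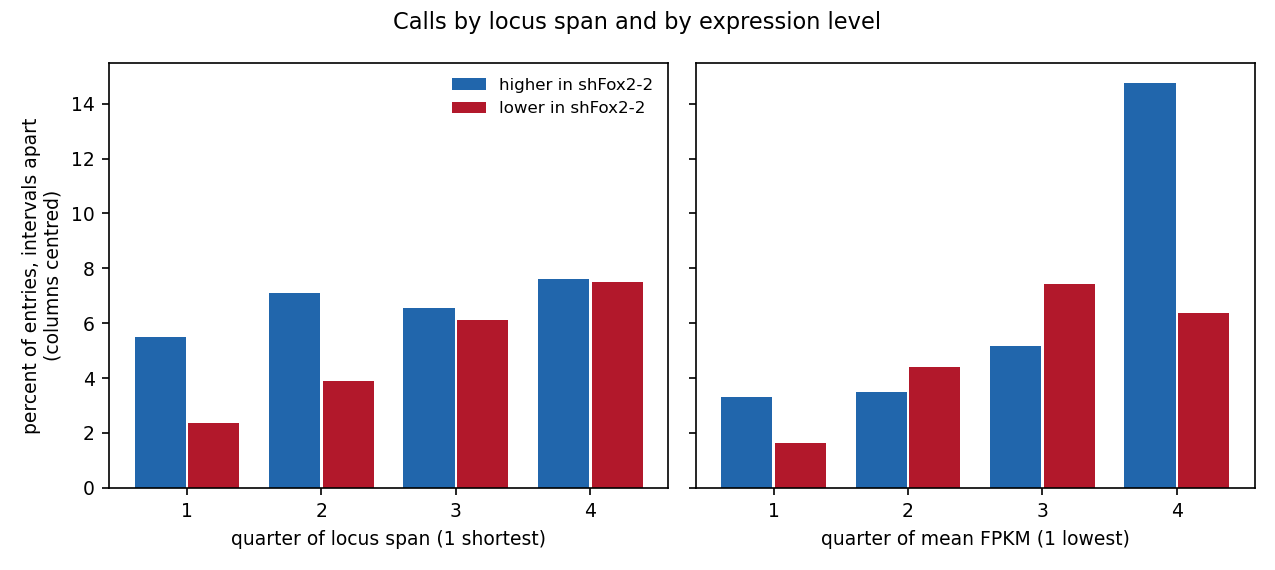
Percent of entries (y axis, from 0) higher (blue) or lower (red) in shFox2-2 after centring, by quartile group of locus span (left) and of mean FPKM (right) on the x axis. The share lower runs from 2.35% in the shortest to 7.50% in the longest loci, and the share higher reaches 14.7% at the highest FPKM.

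RBFOX2 iCLIP clusters were found in a larger share of the genes lower in shFox2-2, though not at every span and level. At least 1 cluster was matched to 74.8% of the 624 lower genes, 55.3% of the 244 higher genes and 51.3% of all entries compared. No test was made of these shares. The 2 groups were not cut alike. All 624 genes lower after centring were kept, but only 244 of the 841 higher after centring. Clusters go with span and expression, so the shares were also set side by side within these. In the longest quartile group of loci they were 90.7% of lower genes, 80.7% of higher genes and 77.2% of all. Among the longest loci in the 2 upper quartile groups of FPKM they were 92.1%, 83.7% and 82.2%, with a median of 10 clusters in lower genes, 5 in higher genes and 6 in all. In the shortest quartile group of loci the lower and higher genes were close, at 32.4% and 31.7%, beside 15.3% of all. In the quartile group of lowest FPKM the order turned, with 37.3% of lower and 40.9% of higher genes, beside 34.03% of all. The cluster list comes from 1 tagged library with no replicate and from cells infected with the RBFOX2 vectors. These shares describe which genes differed and no more, and their cause was not tested. Among genes described above, Tet2 held 11 clusters and Rif1 held 15, while Tbx3 held 4 and Klf4 and Pim2 held 0.

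Along the genome the differences were spread. Medians by chromosome lay between -0.02 for chromosome 11 and 0.09 for chromosome 15, with chromosome Y (4 entries) left aside. Of 2072 windows of 1 Mb, 6 held at least 4 separated genes of 1 direction, and all 6 were lower. The separated genes held 624 lower and 244 higher genes, and the 597 higher only after centring were not counted. The direction of the windows thus depends in part on the rule. The windows were counted after the data had been seen. On mm9 chromosome 4, from 145000001 to 146000000, 8 of 20 entries were lower and 0 higher, among them Rex2 and LOC100041379. In the next window, to 147000000, 6 of 20 were lower, and on chromosome 13, from 62000001 to 63000000, 6 of 13. Entries at these places include near-identical zinc finger genes, between which reads may be split, so each is uncertain. On chromosome 11, from 100000001 to 101000000, 4 of 28 were lower, namely the keratins Krt17 and Krt42, the junction protein Jup and Hap1, while Acly, ATP-citrate lyase, was higher.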

How the data were processed

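RNA-seq was measured in 8 libraries of V6.5 ES cells, 2 for each of 4 hairpins, and the table gave 1 pooled value per gene and hairpin. The deposited FPKM values, their lower and upper bounds and a status were made by the authors. Per the submitters' processing notes TopHat2 2.0, Cufflinks 2.1.1 and the build mm9 were used. Which annotation, cluster caller and scaling of the hairpins applied is not given in the sources used here. iCLIP clusters were matched to genes by the deposited gene ID (33866 of 35639 clusters, 95.0%), and their deposited fold over the untagged library served only as a filter of 2 in an alternative.

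Of 26857 entries, 105 had a failed status. Entries with a mean of at least 1 FPKM in the Rbfox2 hairpins were compared with pandas 2.3.3. A gene was called when its intervals did not overlap, as deposited and after values and bounds had been divided by 2 to the column's median log2 FPKM. Differences are on the log2(FPKM + 1) scale, which understates the change of low genes. With 1 pooled value a hairpin, limma 3.58.1 (R 4.3.3, mean-variance trend, Benjamini-Hochberg adjustment) took its spread from shLuc against shGFP. It was also run on simulated data, and the outcome is not reported here. Where the labels call duplicates biological, the pooled FPKM values hold no spread between them, so p-values measure only the spread between control hairpins.

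The members and the gene lists were chosen with earlier results of these data known. The text names Rbfox2, the 15 largest differences in each direction at a mean of at least 5 FPKM, up to 4 called members of each list and the cell type markers. Members named beyond these were chosen after their values were seen. Some genes that meet the rule are not reported here. Of 1344 list genes, 1317 were matched and 1168 entries compared. Sox2 has 2 entries and was not used. Alternatives were the FPKM minimum, the status, a ratio of at least 1.5, other centrings, the pseudocount and the cluster filter.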

Additional observations from a re-analysis of the deposited data

Results flagged for a closer look

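In a few genes the Rbfox2 hairpins lay outside both control intervals on opposite sides, as deposited and after centring. The difference between the hairpins' effects was not tested, and both are set against the same controls. In all but the last one named here shFox2-1 was above and shFox2-2 below the controls. Centred differences (shFox2-2 minus shFox2-1, log2) were -1.09 for Rex2, -1.06 for Rif1, -1.06 for LOC100041379 and -0.93 for 2610305D13Rik. They were -0.91 for Cops2, a COP9 signalosome subunit, and -0.89 for Cxxc6 (Tet1). They were -0.87 for Atrx, -0.81 for Setd2 and -0.71 for Mga, a MAX-binding repressor. Rex2, LOC100041379 and 2610305D13Rik lie among near-identical genes on chromosome 4 and are uncertain. The gene with the opposite order was Ctsl, the lysosomal protease cathepsin L, at 92.1, 88.7, 70.1 and 121 FPKM in shLuc, shGFP, shFox2-1 and shFox2-2 (1.00).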

How the results depend on the processing

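No paired analysis was possible because the columns pool the 2 libraries of each hairpin and carry no replicate numbers, and for the same reason leaving out each replicate was not run. With a ratio of at least 1.5 required as well, 865 genes were apart as deposited (120 higher, 745 lower) and 610 after centring (335 higher, 275 lower). Other FPKM minimums, an OK status and other centrings kept the counts of the main rule within 1.5 times. The balance turned with centring on the median log2 ratio, with 663 higher and 729 lower of 1392, beside 841 and 624. It also turned after centring without an FPKM minimum, with 846 higher and 893 lower of 1739. The control hairpins gave 151 genes as deposited and 89 after centring, beside 47 on both scales (settings added after seeing the data). Without an FPKM minimum limma called 0 of 19622 entries at an adjusted p under 0.05, with 3531 at an unadjusted p under 0.05; the cause was not tested. Of 44 list medians, 15 changed sign between the scales, each from above 0 to below as deposited. The other settings were run for the 15 lists with a median of at least 0.2 in size, and among these the values that turned were -0.00197 for the amino acid and unfolded protein response and -0.00470 for cytosolic ribosomal proteins, both as deposited. With a cluster fold of at least 2, 65.7% of separated genes held a cluster, beside 69.4%. Depth is unknown, and the intervals cover what the authors' estimate covers.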
